A study of Arabidopsis thaliana with 12 samples.

Results

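The nitrilase family of Arabidopsis thaliana has 4 members, NIT1 (AT3G44310), NIT2 (AT3G44300), NIT3 (AT3G44320) and NIT4 (AT5G22300). They were picked by their locus names from the 33602 genes quantified, and 4 of 4 passed the filter on low counts among the 20888 genes tested. The RNA came from seedlings at 8 d, shoots and roots together, grown vertically in continuous light without added jasmonate, and each of the 12 libraries came from a pool of about 200 seedlings. The 4 genotypes compared share the Columbia-0 background and have 3 independently prepared libraries each. The octuple mutant jazQ mycT carries every mutation of the other lines. The quintuple mutant jazQ carries mutations in JAZ1, JAZ3, JAZ4, JAZ9 and JAZ10, which encode repressors of jasmonate signalling. The triple mutant mycT carries insertions in MYC2, MYC3 and MYC4, which encode transcription factors that JAZ proteins bind and repress. Col-0 is the wild type. Each mutant combination is a single line made by crossing, and the Col-0 and jazQ libraries also served an earlier study, with which the mycT and jazQ mycT libraries were grown and processed in parallel. Levels in whole seedlings do not separate the number of cells of a type from the RNA in each cell.

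Nitrilases hydrolyse nitriles to the carboxylic acid and ammonia through a catalytic cysteine. NIT1, NIT2 and NIT3 belong to a group found in the Brassicaceae, where nitriles arise when myrosinases and specifier proteins break down glucosinolates, and these enzymes can also turn indole-3-acetonitrile into the auxin indole-3-acetic acid. NIT4 belongs to the group shared by seed plants and acts on beta-cyanoalanine, the product made when cyanide, a by-product of ethylene synthesis, is detoxified.

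In the TAIR10.1 build NIT2, NIT1 and NIT3 lie in this order on the + strand of chromosome 3, at chr3:15983199-15985535, chr3:15986624-15989505 and chr3:15993259-15995811, with gaps of 1088 and 3753 bases between them. NIT4 lies alone on chromosome 5, at chr5:7379187-7382025, also on the + strand. The RefSeq model with the longest coding sequence has 5 exons in each member, and the coding sequences have 1041 bases in NIT1, 1020 in NIT2, 1041 in NIT3 and 1068 in NIT4. The aligned coding bases were 91.4% identical between NIT1 and NIT2, 88.1% between NIT1 and NIT3 and 87.6% between NIT2 and NIT3, against 74.4% to 76.0% between NIT4 and any of them. The stretch that encodes the catalytic cysteine is shown to make this closeness visible. Each line holds 60 coding bases within 1 exon from RefSeq (TAIR10.1, + strand), the cysteine codon takes bases 31 to 33, and capitals mark bases that differ from NIT1.
NIT1, chr3:15988147-15988206: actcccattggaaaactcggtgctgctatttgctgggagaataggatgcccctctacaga
NIT2, chr3:15984473-15984532: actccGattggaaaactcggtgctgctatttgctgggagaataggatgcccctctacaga
NIT3, chr3:15994791-15994850: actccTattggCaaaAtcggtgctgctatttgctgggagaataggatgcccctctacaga
NIT4, chr5:7381070-7381129: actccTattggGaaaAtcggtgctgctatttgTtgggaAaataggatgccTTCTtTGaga

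In this window NIT2 differed from NIT1 at 1 base, NIT3 at 3 and NIT4 at 11. After base 16 the tandem genes were alike to the end of the window. A read of 50 bases from such a stretch can fit more than 1 gene, and the counting tool then shares it between them by expectation maximization. Of all windows of 50 bases along the mRNA, 4.9% in NIT1, 5.8% in NIT2 and 0.6% in NIT3 occurred letter for letter in another member, and 18.7%, 24.1% and 11.6% did so with up to 2 mismatches. No such window was found for NIT4 (0 of 1494). The split of reads among NIT1, NIT2 and NIT3 is thus uncertain for a minority of each mRNA, which is why their sum is also given.

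The bases in front of NIT1 and NIT3 are shown because both genes differed in the same direction in the jazQ lines. MYC2, MYC3 and MYC4 are known to bind the G-box CACGTG. The 250 bases before the RefSeq start of every protein-coding gene on the nuclear chromosomes were searched on both strands for this palindrome and for the variant CACATG. Of the 27437 regions, 6.5% held CACGTG and 11.1% held CACATG. NIT3 held 1 CACGTG, whose first base lay 13 bases before the start, NIT4 held 1 CACATG at 241 bases, and neither string occurred before NIT1 or NIT2. Capitals mark the match.
NIT1, chr3:15986374-15986623: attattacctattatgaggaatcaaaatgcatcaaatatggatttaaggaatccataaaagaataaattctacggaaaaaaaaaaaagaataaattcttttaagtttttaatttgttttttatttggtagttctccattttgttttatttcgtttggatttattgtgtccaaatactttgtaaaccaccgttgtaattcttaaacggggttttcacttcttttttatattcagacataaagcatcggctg
NIT3, chr3:15993009-15993258: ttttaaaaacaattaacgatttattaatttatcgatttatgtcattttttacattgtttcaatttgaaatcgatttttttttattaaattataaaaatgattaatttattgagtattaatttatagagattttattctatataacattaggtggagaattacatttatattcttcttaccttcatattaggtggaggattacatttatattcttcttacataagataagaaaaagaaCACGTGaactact

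The libraries held 12336090 to 26347184 counts, and the 4 nitrilases had between 149 and 14051 counts in every library. Jasmonate mutants were checked at the mutated loci first. In jazQ relative to Col-0, the counts of 2 of the 5 mutated JAZ genes were lower and those of 2 were higher (log2 fold changes of -3.25 to 6.16). Of the 3 mutated MYC genes, 1 was lower in mycT than in Col-0 (-0.55 to 0.23), so the counts at these loci did not mark every mutation. The library jazQ mycT replicate 1 stood apart, with 6.02% of its counts on ribosomal RNA genes, against 0.403% to 2.56% in the other 11, and the lowest TMM factor of all (0.907). The 15 root markers summed to 162 to 195 TPM in jazQ mycT, 203 to 207 in jazQ, 211 to 229 in mycT and 211 to 224 in Col-0, and the 11 shoot markers to 24600 to 32390 TPM in jazQ mycT, 28420 to 33240 TPM in jazQ, 29100 to 35340 TPM in mycT and 25770 to 29640 TPM in Col-0. No marker was at 0 throughout. The summed root markers were thus lowest in jazQ mycT in TPM, which has no TMM scaling. On this scale the median of all genes was shifted by -0.09 (log2) in jazQ mycT relative to Col-0 and to jazQ. The shift was -0.08 in mycT relative to Col-0 and -0.006 in jazQ mycT relative to mycT. With TMM scaling, the median log2 fold change of the root markers in jazQ mycT was -0.15 relative to Col-0 and -0.18 relative to mycT. Relative to Col-0, 1 of 14 root markers tested was called in jazQ mycT, beside 5.48% of all genes tested. This was HKT1, which encodes a root sodium transporter (log2 fold change of -0.78). Relative to mycT, 2 of 14 were called lower, beside 7.83% of all genes tested, and 0 of 14 without jazQ mycT replicate 1. The part of the lower root sum in the results on jazQ mycT was not tested.

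NIT1 was by far the most abundant nitrilase. Per length, NIT1 averaged 643 ± 67.6 TPM in the jazQ mycT line, 767 ± 63.3 TPM in the jazQ line, 559 ± 24.8 TPM in the mycT line and 592 ± 15.4 TPM in Col-0 (SD, n = 3 each), and its mean over all libraries ranked 172 among 33602 genes. NIT2 averaged 25.2 ± 2.16 TPM in the jazQ mycT line, 39.0 ± 4.93 TPM in the jazQ line, 32.7 ± 8.01 TPM in the mycT line and 40.1 ± 7.98 TPM in Col-0. NIT3 averaged 28.2 ± 3.09 TPM in the jazQ mycT line, 34.7 ± 1.38 TPM in the jazQ line, 21.3 ± 0.749 TPM in the mycT line and 22.7 ± 0.782 TPM in Col-0. NIT4 was the lowest member everywhere, with 7.82 ± 0.963 TPM in the jazQ mycT line, 9.37 ± 0.667 TPM in the jazQ line, 12.0 ± 0.660 TPM in the mycT line and 12.4 ± 1.77 TPM in Col-0. NIT1 stood above and NIT4 below both others in each of the 12 libraries, so the order of the family was fixed except in its middle. NIT1 made up 89.1% to 92.4% of the TPM summed over NIT1, NIT2 and NIT3 in single libraries.

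**Figure D1:**
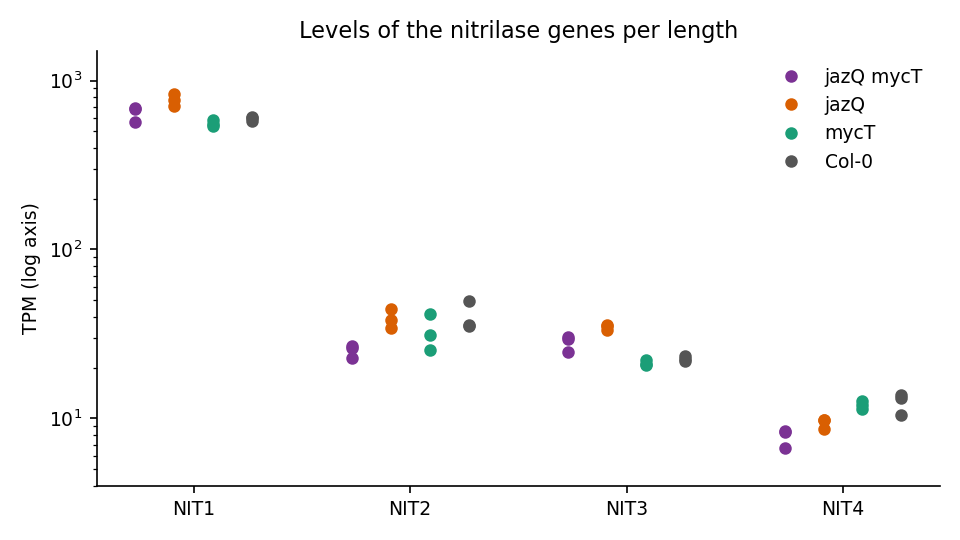
TPM (log axis) of NIT1 to NIT4 in each of the 12 libraries, one point per library, with the genotypes side by side in the order jazQ mycT, jazQ, mycT and Col-0. NIT1 lies above 539 TPM in every library, NIT4 lies below 14, and NIT2 and NIT3 lie between 20 and 50.

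The middle of the order was not the same in every line. The ratio of NIT2 to NIT3 in TPM was 0.880, 0.890 and 0.924 in the jazQ mycT libraries and 1.04, 1.07 and 1.26 in jazQ, against 1.21, 1.41 and 2.00 in mycT and 1.58, 1.62 and 2.097 in Col-0. NIT2 was thus below NIT3 within all 3 jazQ mycT libraries and above it within each library of jazQ, mycT and Col-0. The ratios of jazQ overlapped with those of mycT, since jazQ replicate 1 was above mycT replicate 1, and lay below those of Col-0. In jazQ mycT the mean of NIT2 was lower and that of NIT3 higher than in Col-0.

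The first question was how the loss of 5 JAZ repressors changes each nitrilase in a plant whose MYC genes are intact. In jazQ relative to Col-0, 3 of 4 members were called (edgeR quasi-likelihood test, Benjamini-Hochberg adjusted p under 0.05), beside 2.86% of all genes tested. NIT1 and NIT3 rose, NIT4 fell, and NIT2 did not pass the test. Values in the following sentences are normalised read counts (CPM, TMM scaling), which are comparable between libraries for 1 gene.

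NIT3 had 36.1, 33.3 and 35.6 CPM in jazQ, against 23.4, 22.1 and 23.2 CPM in Col-0. Every jazQ library was above every Col-0 library, and the gap was several times the spread within either genotype. The fitted fold was 1.52 (log2 fold change of 0.61 ± 0.06 SE, edgeR, adjusted p = 7.15e-05), the largest rise of a member in any comparison. NIT1 had 739, 670.0 and 617 CPM in jazQ, against 511, 520 and 516 CPM in Col-0. The jazQ libraries were spread over a wider range than those of Col-0 but did not overlap with them (fold of 1.31, log2 0.39 ± 0.06 SE, edgeR, adjusted p = 0.00618). The call of NIT1 was lost with limma on log2(TPM + 1), at an adjusted p of 0.0651 with the filter and 0.113 without it, where the log2 difference was 0.37.

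NIT4, the member outside the array, went the other way. It had 9.12, 10.1 and 9.99 CPM in jazQ, against 14.1, 13.7 and 11.1 CPM in Col-0. The jazQ libraries were all lower, although Col-0 replicate 3 came close to them (fold of 0.75, log2 -0.41 ± 0.10 SE, edgeR, adjusted p = 0.0388). This call was near the threshold. It was lost with DESeq2 (adjusted p = 0.0568), with the 2 genotypes alone in the fit, with limma on log2(TPM + 1), and without any of 8 libraries, namely replicates 1 and 2 of Col-0 (0.164 and 0.12), replicates 1, 2 and 3 of jazQ (0.125, 0.0866 and 0.077), replicate 2 of mycT (0.0583), and replicates 2 and 3 of jazQ mycT (0.0594 and 0.0566), while the log2 fold change remained between -0.51 and -0.34. NIT2 had 46.4, 35.2 and 38.8 CPM in jazQ, against 50.01, 36.4 and 37.2 CPM in Col-0. These ranges overlapped almost fully, and 1 library of each genotype was high (fold of 0.97, 95% interval 0.765 to 1.23, edgeR, adjusted p = 0.939).

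**Figure D2:**
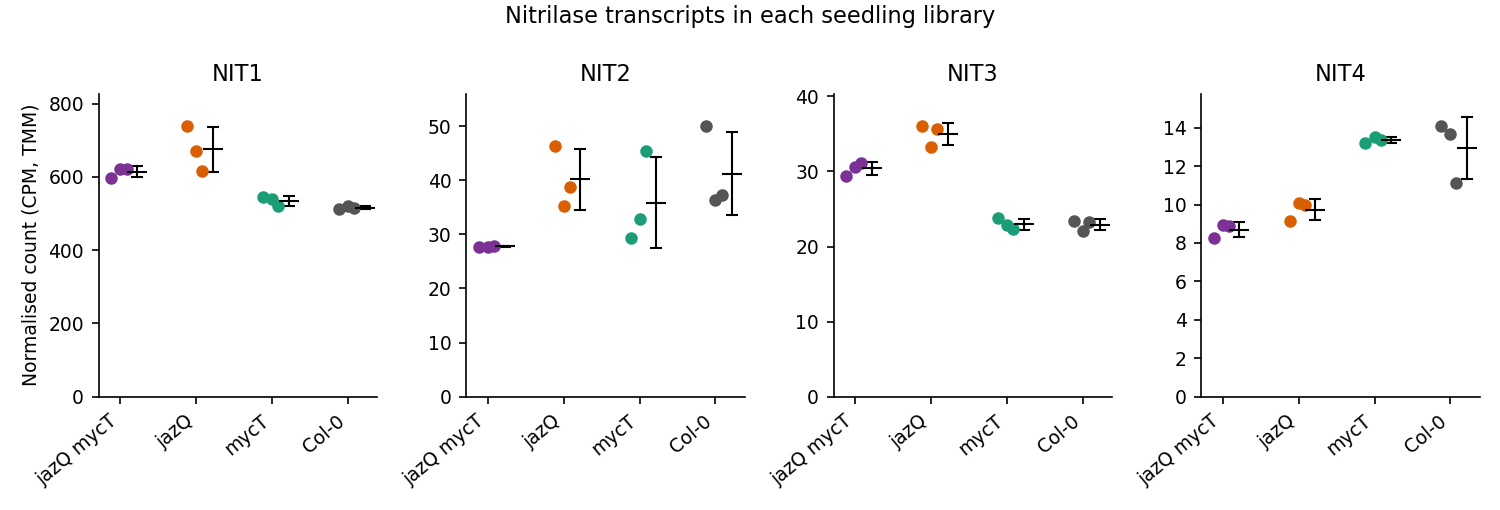
Normalised counts (CPM after TMM scaling, linear axes from 0) of NIT1 to NIT4 in each library, with the mean ± SD of 3 libraries as bars. NIT3 sits between 29.4 and 36.1 CPM in both jazQ lines and between 22.1 and 23.8 CPM in mycT and Col-0, and NIT4 has at most 10.1 CPM in the jazQ lines and at least 11.1 CPM in the other lines.

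The second question was whether the nitrilases need MYC2, MYC3 and MYC4 for their basal level. In mycT relative to Col-0, 0 of 4 members were called, beside 1.8% of all genes tested. None of the 4 had an unadjusted p under 0.05 in edgeR, beside 3552 of the 20888 genes tested, and DESeq2 called none of the 4. NIT3 had 23.8, 22.9 and 22.3 CPM in mycT, which overlapped with the Col-0 range given above (fold of 1.00, 95% interval 0.918 to 1.09). NIT1 had 544, 539 and 519 CPM in mycT (fold of 1.04, interval 0.941 to 1.14). NIT4 had 13.2, 13.5 and 13.4 CPM in mycT (fold of 1.03, interval 0.896 to 1.19). The intervals of these 3 genes thus lay between folds of 0.896 and 1.19. NIT2 had 29.3, 32.8 and 45.4 CPM in mycT, with replicate 3 well above the rest, and its interval was wider (fold of 0.858, interval 0.676 to 1.09). Its log2 fold change of -0.22 was -0.42 without mycT replicate 3, -0.093 without mycT replicate 1 and -0.051 without Col-0 replicate 1 (edgeR, adjusted p between 0.205 and 0.927).

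The third question was what remains of the jazQ pattern when the MYC genes are mutated as well. In jazQ mycT relative to Col-0, 3 of 4 members were called, beside 5.48% of all genes tested, and these were again NIT1, NIT3 and NIT4. The comparison shares its Col-0 libraries with the others. NIT3 had 29.4, 30.6 and 31.1 CPM in jazQ mycT, all above the highest Col-0 value of 23.4 CPM (fold of 1.32, log2 0.40 ± 0.06 SE, edgeR, adjusted p = 0.00118). On log2(TPM + 1) with limma the adjusted p of NIT3 was 0.0616, at a log2 difference of 0.30. NIT4 had 8.27, 8.95 and 8.88 CPM in jazQ mycT, all below the lowest Col-0 value of 11.1 CPM (fold of 0.67, log2 -0.58 ± 0.10 SE, edgeR, adjusted p = 0.00372).

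NIT1 had 597, 622 and 623 CPM in jazQ mycT, above the Col-0 libraries on this scale (fold of 1.19, log2 0.25 ± 0.06 SE, edgeR, adjusted p = 0.0382). In TPM the genotypes overlapped, since jazQ mycT replicate 1 had 566 TPM, against 575 to 604 TPM in Col-0. The log2 difference of NIT1 was 0.11 on log2(TPM + 1) with limma (adjusted p = 0.514), a scale on which the median of all genes moved by -0.09 in this comparison. The call of NIT1 was also lost without replicate 1, 2 or 3 of Col-0 (0.121, 0.104 and 0.0613) and without replicate 1, 2 or 3 of jazQ mycT (0.0535, 0.132 and 0.13).

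NIT2 was the only tandem member with lower values in jazQ mycT than in Col-0. It had 27.7, 27.7 and 27.9 CPM in jazQ mycT, close to each other and below the Col-0 range of 36.4 to 50.01 CPM (fold of 0.67, log2 -0.58 ± 0.16 SE, 95% interval 0.527 to 0.852 in fold). The difference missed the threshold in edgeR (adjusted p = 0.0563) and passed it with DESeq2 (0.00871), with no filter on low counts (0.0452), with the 2 genotypes alone in the fit (0.0301), with limma on log2(TPM + 1) (0.0438), and without mycT replicate 1 (0.0423) or mycT replicate 3 (0.0216), the library in which NIT2 was high. Without Col-0 replicate 1, the other high library, its log2 fold change was -0.41 (adjusted p = 0.22).

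**Figure D3:**
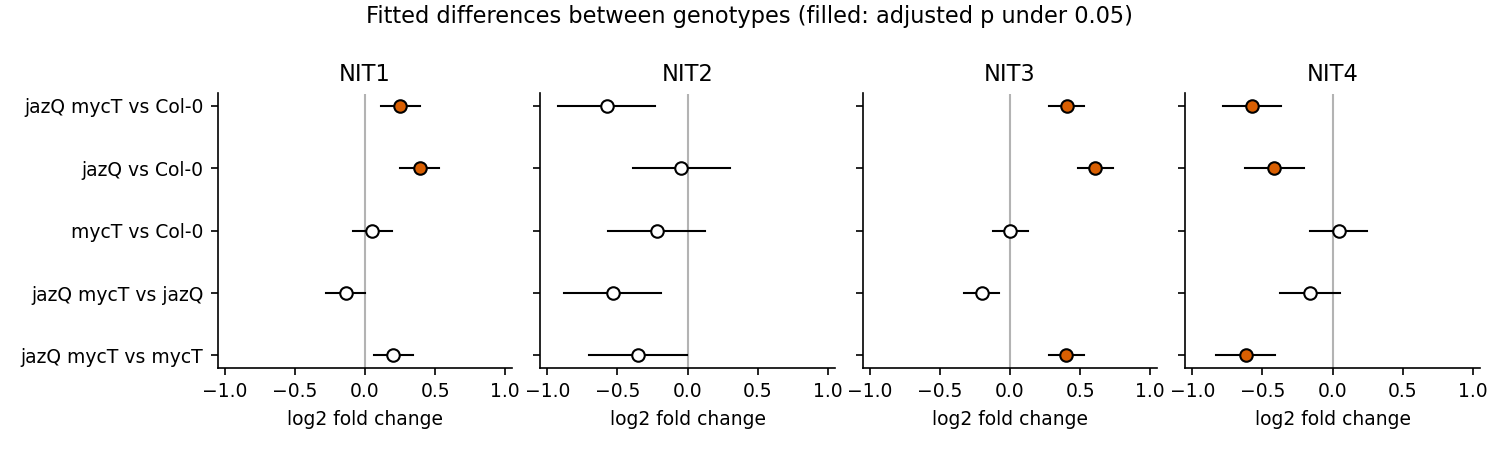
Fitted log2 fold changes (edgeR) of NIT1 to NIT4 with 95% intervals as bars, for 5 comparisons between genotypes, filled where the adjusted p over all 20888 genes was under 0.05. NIT1 and NIT3 lie right of 0 and NIT4 lies left of 0 wherever a line with the jaz mutations is compared with one without them, and the mycT intervals against Col-0 all cross 0.

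The effect of the jaz mutations in plants with mutated MYC2, MYC3 and MYC4 is given by jazQ mycT relative to mycT, where 2 of 4 members were called, beside 7.83% of all genes tested. NIT3 was higher in every jazQ mycT library than in any mycT library (fold of 1.32, log2 0.40 ± 0.06 SE, edgeR, adjusted p = 0.00126). NIT4 was lower without overlap (fold of 0.65, log2 -0.62 ± 0.10 SE, edgeR, adjusted p = 0.00212). NIT1 did not overlap in CPM either but overlapped in TPM. There jazQ mycT replicate 1 had 566 TPM, against 540 to 587 TPM in mycT. The difference of NIT1 missed the threshold (fold of 1.15, interval 1.04 to 1.27, edgeR, adjusted p = 0.0741) and passed it with DESeq2 (0.0166) and without jazQ replicate 1 (0.0391) or replicate 3 (0.0385). NIT2 was lower in every jazQ mycT library than in any mycT library in CPM and overlapped in TPM (fold of 0.78, interval 0.613 to 0.995, edgeR, adjusted p = 0.204).

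The effect of the myc mutations within jazQ is given by jazQ mycT relative to jazQ, where 0 of 4 members were called, beside 2.21% of all genes tested. All 4 estimates were below 0. NIT3 was lower in every jazQ mycT library than in any jazQ library (fold of 0.87, interval 0.798 to 0.945, edgeR, unadjusted p = 0.00335, adjusted p = 0.0951), and so was NIT2 (fold of 0.69, interval 0.542 to 0.879, edgeR, unadjusted p = 0.00578, adjusted p = 0.123). NIT2 passed with DESeq2 (0.0338) and with the 2 genotypes alone in the fit (0.0278). NIT1 overlapped in CPM (fold of 0.91, interval 0.826 to 1.00). In TPM it did not overlap, on a scale where the median of all genes was shifted by -0.09 (log2). NIT4 was lower in every jazQ mycT library than in any jazQ library (fold of 0.89, interval 0.771 to 1.04, edgeR, adjusted p = 0.461). In edgeR 2 of the 4 had an unadjusted p under 0.05, beside 3234 of the 20888 genes tested, and 0 of 4 had an adjusted one.

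Whether the myc mutations act differently in jazQ than in Col-0 was tested as an interaction, where 0 of 4 members were called, beside 0.579% of all genes tested. The interaction terms were -0.19 ± 0.09 for NIT1, -0.31 ± 0.23 for NIT2, -0.21 ± 0.08 for NIT3 and -0.21 ± 0.14 for NIT4 (log2, SE, edgeR), with adjusted p between 0.356 and 0.644. The lowest unadjusted p (edgeR) was that of NIT3 (0.0248), the only one under 0.05, beside 2365 of the 20888 genes tested. DESeq2 called 0 of 4. With a library left out in turn, the terms ranged from -0.25 to -0.11 for NIT1 (lowest size without jazQ replicate 1), from -0.48 to -0.11 for NIT2 (without Col-0 replicate 1 and without mycT replicate 3), from -0.24 to -0.18 for NIT3 and from -0.28 to -0.10 for NIT4 (lowest size without Col-0 replicate 3), and 0 were called. A smaller response of NIT1 and NIT3 to the jaz mutations in the mycT background was therefore not shown.

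Summed over the tandem array, where the split of reads between copies does not matter, the transcripts amounted to 672 ± 15.6 CPM in jazQ mycT, 750 ± 66.1 CPM in jazQ, 593 ± 5.38 CPM in mycT and 580 ± 4.44 CPM in Col-0 (SD, n = 3 each). The log2 fold change of the sum relative to Col-0 was 0.21 in jazQ mycT, 0.37 in jazQ and 0.03 in mycT, with no test. Summed in TPM, which has no TMM scaling, it was smaller in jazQ mycT (0.089) and below 0 in mycT (-0.094). Since NIT1 made most of the sum, these values lie near its own, and the lower NIT2 took little from them. NIT1 stood 81.1 to 84.3 times above NIT4 in TPM in jazQ mycT and 72.4 to 96.8 times in jazQ, against 45.9 to 47.4 times in mycT and 43.6 to 55.2 times in Col-0. The distance between the most and the least abundant member was thus wider in both jazQ lines, without overlap with mycT and Col-0.

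Genes of the pathways around the nitrilases were described by counts of called genes and by medians, and the median over all genes tested lay between -0.01 and 0.00 in each comparison. Glucosinolate hydrolysis is the process from which nitriles that NIT1, NIT2 and NIT3 can use may arise. Among the 14 genes tested around this process, 5 rose and 0 fell in jazQ (median log2 fold change of 0.40). In jazQ mycT 5 rose and 1 fell (0.32), and in mycT 0 rose and 1 fell (0.08). TGG2, a myrosinase, had 300.5, 349 and 317 CPM in jazQ mycT, 473, 492 and 314 CPM in jazQ, 169, 207 and 177 CPM in mycT and 132, 197 and 206 CPM in Col-0. It rose in both jazQ lines without overlap with the other 2 lines. The nitrile-specifier genes NSP3 and NSP4, whose products steer glucosinolate breakdown to nitriles, rose 1.74-fold and 1.59-fold in jazQ mycT and 1.63-fold and 1.54-fold in jazQ, and had folds of 1.07 and 1.16 in mycT (edgeR, adjusted p of 0.706 and 0.238). MBP2, a myrosinase-binding protein gene, rose 5.65-fold in jazQ and was nearly silent without the MYC genes, with 0 to 2 counts per library in jazQ mycT and 0 to 1 in mycT, against 14 to 25 in Col-0. The gene that fell in mycT was MBP2 (edgeR, adjusted p = 0.041), and DESeq2 called 0 of 14 in mycT. Without jazQ mycT replicate 1, 3 of the 14 genes rose and 0 fell in jazQ mycT, where 851 genes were called in all. In that fit 0 of 14 were called in mycT.

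The route that makes indole glucosinolates and indole-3-acetonitrile showed another pattern. Of its 9 genes, 0 were called in jazQ (median 0.14, edgeR, 1 with an unadjusted p under 0.05 and 1 called with DESeq2), 5 fell in mycT (median -1.20) and 5 fell in jazQ mycT (median -0.83). CYP79B3, which makes indole-3-acetaldoxime from tryptophan, had 21.7, 18.1 and 16.0 CPM in jazQ mycT, 106, 110 and 94.1 CPM in jazQ, 7.92, 9.59 and 9.57 CPM in mycT and 79.4, 79.3 and 56.8 CPM in Col-0. Its partner CYP79B2 and the downstream CYP83B1 and SUR1 fell in mycT (log2 fold changes of -2.87, -2.25 and -1.20) and in jazQ mycT (-2.097, -1.51 and -0.95). The nitrilases differed from these genes in the mycT column, where the largest log2 difference of a member was that of NIT2, at -0.22 (-0.42 to -0.051 with a library left out).

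Genes around cyanide, the substrate source of NIT4, were measured in 14 of 14 cases. In jazQ mycT 1 rose and 4 fell (median -0.23), in jazQ 0 rose and 1 fell (-0.02), and in mycT 0 of 14 were called (-0.17, edgeR, 6 with an unadjusted p under 0.05 and 0 called with DESeq2). The shares called of all genes tested were 5.48% in jazQ mycT, 2.86% in jazQ and 1.8% in mycT. Those that fell in jazQ mycT included ACO4 and ACO5, which encode ethylene-forming oxidases that release cyanide (log2 fold changes of -0.38 and -0.70), and DES1, a cysteine desulfhydrase gene (-0.74). OASB, which encodes the plastid cysteine synthase, rose in jazQ mycT (0.45). CYSC1, the mitochondrial beta-cyanoalanine synthase that forms the substrate of NIT4, differed by -0.06 on the log2 scale in jazQ mycT (edgeR, adjusted p = 0.704). Without jazQ mycT replicate 1, 1 of the 14 rose and 2 fell.

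**Figure D4:**
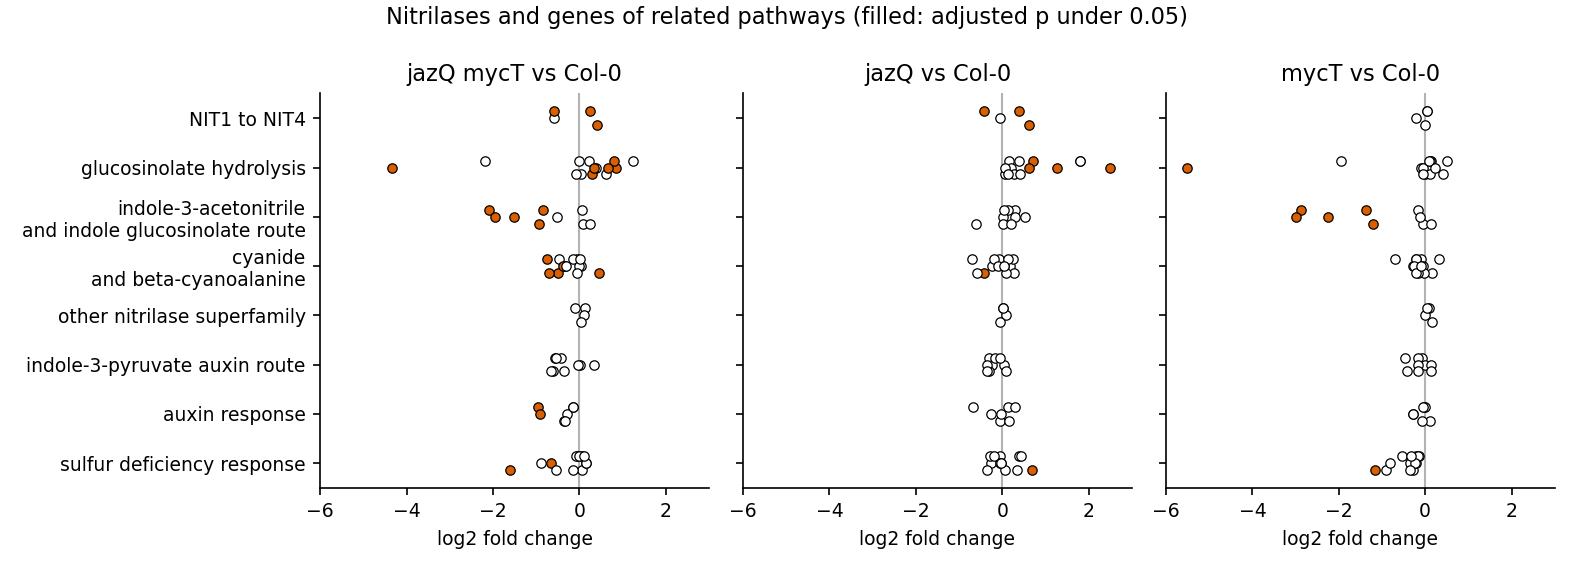
Log2 fold changes (edgeR) of the 4 nitrilases and of each tested gene of 7 related gene lists, for jazQ mycT, jazQ and mycT relative to Col-0, filled where the adjusted p was under 0.05. In mycT the indole glucosinolate route has 5 filled points left of 0 and the nitrilases have none, while in jazQ the glucosinolate hydrolysis genes have 5 filled points right of 0.

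Against Col-0, the remaining lists held called genes mainly in jazQ mycT, where 5.48% of all genes tested were called. The share of all genes tested was 2.86% in jazQ and 1.8% in mycT. The 4 other genes of the nitrilase superfamily encode carbon-nitrogen hydrolases with other substrates. In each of the 6 comparisons 0 of 4 were called with edgeR and with DESeq2. At most 1 of 4 had an unadjusted p under 0.05 in edgeR, beside 2365 to 4905 of the 20888 genes tested. Against Col-0, the list had a median of 0.07 in jazQ mycT, 0.01 in jazQ and 0.07 in mycT (log2). The indole-3-pyruvate route, the main path of auxin synthesis, had 1 of 9 called in jazQ mycT, where TAA1 fell (log2 -0.56), and 0 in jazQ and in mycT (edgeR, 1 and 0 with an unadjusted p under 0.05, 0 called with DESeq2). Of 7 auxin response genes, IAA29 and GH3.3 fell in jazQ mycT (-0.96 and -0.90), and 0 were called in jazQ (edgeR, 3 with an unadjusted p under 0.05, 0 called with DESeq2) and in mycT (1 with an unadjusted p under 0.05, 1 called with DESeq2). Of 13 genes known to respond to sulfur deficiency, a condition in which NIT3 is known to be induced, the sulfate transporter gene SULTR4;2 rose in jazQ (0.70), APR1 fell in mycT (-1.16), and SULTR1;2 and LSU1 fell in jazQ mycT (-0.65 and -1.61). The median of this list was -0.04 in jazQ. A link between sulfur supply and the rise of NIT3 was not tested. Without jazQ mycT replicate 1, the genes called in jazQ mycT were 2 of 9 for the indole-3-pyruvate route, 1 of 8 for auxin response and 1 of 13 for sulfur deficiency, and all of them fell.

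The neighbours on the chromosome were described as well. Of the 10 annotated genes around the tandem array, 4 were tested. The same 1 of the 4 was called in jazQ, beside 2.86% of all genes tested, and in jazQ mycT, beside 5.48%. AT3G44326, an F-box family gene and the first protein-coding gene beyond NIT3, rose in jazQ (log2 0.97 ± 0.13 SE, edgeR, adjusted p = 0.00143) and in jazQ mycT (1.13 ± 0.13 SE, adjusted p = 0.000228), and had 0.04 in mycT. It was also higher in jazQ mycT than in mycT (log2 1.10 ± 0.13 SE, edgeR, adjusted p = 0.000314). The other 3 had log2 fold changes of -0.09 to 0.13 in jazQ. Of the 10 around NIT4, 8 were tested. In jazQ and in mycT 0 of the 8 were called (edgeR, 3 and 4 with an unadjusted p under 0.05, 0 called with DESeq2), beside 2.86% and 1.8% of all genes tested. In jazQ mycT 1 of the 8 was called, beside 5.48%. This was AT5G22310, the gene right after NIT4, which fell (-0.53 ± 0.13 SE, edgeR, adjusted p = 0.0357), with -0.45 in jazQ and -0.42 in mycT. The array lies 9.86 Mb from JAZ3 on chromosome 3, and NIT4 lies 3.16 Mb from JAZ10 and 11.59 Mb from MYC3 on chromosome 5.

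The genes whose levels most resembled each member over the 12 libraries were looked up among 15926 others with a mean of at least 5 TPM, by Pearson's r of log2(CPM + 0.5). These are descriptions of libraries that fall into 4 genotypes, with no test. NIT1 was most like the arginase family gene AT4G08870 (r = 0.973), URH2 (0.964) and the annexin gene ANNAT1 (0.952). NIT3 was most like JAZ3 (0.981) and its near neighbour HIP (0.980), which starts 3.6 kb from it, and then AGT2 (0.974). By rank (Spearman's rho) JAZ3 had 0.776, HIP 0.804 and AGT2 0.937, so the order of the 3 was reversed. JAZ3 is itself mutated in jazQ, and its counts were higher in both jazQ lines (log2 5.46 in jazQ and 4.24 in jazQ mycT). NIT4 was most like AP2 (0.956), QWRF8 (0.951) and STH (0.942), and NIT2 was most like AT5G26010 (0.898), COB (0.890) and AT3G14990 (0.882). By Pearson's r the likeness of NIT2 was the lowest of the 4.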

How the data were processed

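Single-end reads of 50 bases were filtered, mapped to the TAIR10 gene models and quantified per gene by the authors with RSEM v1.2.11. The aligner and the strand of the libraries are not given in the sources used here. The expected counts were deposited as whole numbers and not normalized, and the TPM values deposited by the authors divide out gene length and library total. RSEM shares reads that fit several genes. Counts were tested with edgeR v4.0.16 (R v4.3.3, glmQLFit and glmQLFTest) over all 12 libraries with a term for genotype, TMM normalization and filterByExpr. P-values were adjusted by Benjamini-Hochberg over all 20888 genes tested. The SE is the log2 fold change divided by the square root of F, and 95% intervals use the same fit. The interaction term sets the mycT effect within jazQ against that within Col-0. Scripts were tested on simulated counts.

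Alternatives were RLE factors, DESeq2 v1.42.0, no filter (at least 1 count), a filter at 1 CPM on average, a fit of only the compared genotypes, the replicate number as a block, limma v3.58.1 on log2(TPM + 1) and log2(TPM + 0.1) where genes averaged 1 TPM or more, the same at TPM + 1 unfiltered, omission of rRNA, chloroplast and mitochondrial genes, an adjusted p under 0.01, each library left out, and NIT1, NIT2 and NIT3 merged. The count of called genes in each list without jazQ mycT replicate 1 was added after seeing the data. Replicate numbers come from the sample titles. Same-numbered libraries of mycT and Col-0 deviated together (correlations of 0.153 to 0.379 in 3 of 3 pairs), and no other pair of genotypes did so throughout.

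The members and lists were chosen with earlier results of these data known. Beside the members, the genes named were up to 4 called genes per list by the smallest adjusted p against Col-0, 5 annotated genes on each side of the array and of NIT4, the 3 most alike genes per member and the mutated genes. A gene of the cyanide list that this rule names is not reported here. DES1, CYSC1 and the single values of other list members were named after their values were seen. Sequences and gene positions come from RefSeq (TAIR10.1), and the counts rest on TAIR10 models, so gene starts may differ. Sequences were handled in Python v3.11.15 with Biopython v1.88 and plotted with matplotlib v3.10.9.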

Additional observations from a re-analysis of the deposited data

How the results depend on the processing

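No difference of a member turned round with a call in any alternative. For each member and comparison between genotypes, 11 alternatives other than leaving out a library were run (12 for NIT4), and 1 fewer for the interaction, whose fit already holds only the genotypes compared. They changed 24 calls. Calls relative to Col-0 were lost with limma on log2(TPM + 1), on log2(TPM + 0.1) and on log2(TPM + 1) without filter. These were NIT1 in jazQ (log2 fold changes of 0.37, 0.37 and 0.37) and in jazQ mycT (0.11, 0.11 and 0.11). The others were NIT3 in jazQ mycT (0.30, 0.31 and 0.30) and NIT4 in jazQ (-0.37, -0.40 and -0.37). At an adjusted p under 0.01 the unchanged values of NIT1 in jazQ mycT (0.25) and NIT4 in jazQ (-0.41) were no longer called. NIT4 in jazQ was also lost with DESeq2 (-0.42) and with both genotypes alone (-0.41). Calls were gained for NIT2 in jazQ mycT relative to Col-0 with DESeq2 (-0.57), no filter (-0.58), both genotypes alone (-0.57), log2(TPM + 1) (-0.63) and log2(TPM + 0.1) (-0.65), for NIT2 relative to jazQ with DESeq2 (-0.53) and both genotypes alone (-0.53), and for NIT1 in jazQ mycT relative to mycT with DESeq2 (0.20). The cause was not tested.

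With each library left out in turn, 18 of 288 calls changed. Log2 fold changes ranged from 0.24 to 0.28 for NIT1 in jazQ mycT relative to Col-0, from 0.19 to 0.23 for NIT1 in jazQ mycT relative to mycT, from -0.66 to -0.41 for NIT2 in jazQ mycT relative to Col-0 and from -0.51 to -0.34 for NIT4 in jazQ relative to Col-0. The calls of NIT3 held in every such fit. The sum of TPM in place of CPM moved the log2 fold change of the array to 0.089 in jazQ mycT and -0.094 in mycT relative to Col-0, and to -0.27 in jazQ mycT relative to jazQ. The interaction of the summed array ranged from -0.25 to -0.12 with a library left out.

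The replicate block changed no call of a member (NIT3 in jazQ had 0.61 with the block) and moved no count of called genes by over 1.5 times (297 with the block and 377 without in mycT relative to Col-0). Over the other settings the number of genes called ranged from 199 to 825 in jazQ (597 as reported) and from 61 to 742 in mycT (377), from 452 to 1355 in jazQ mycT (1145), from 215 to 656 for jazQ mycT relative to jazQ (461), from 578 to 1815 for jazQ mycT relative to mycT (1635) and from 24 to 213 for the interaction (121). In this design, 3 libraries per genotype limit the differences that can be called, and the share of reads that fit several copies limits how far NIT1, NIT2 and NIT3 can be told apart.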
